A study of Mus musculus with 24 samples.

Results

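Endothelial cells line every blood vessel, and the 10 genes described here mark that lining in the embryonic lower jaw: the growth factor receptors Kdr, Flt1, Tek and Tie1, the junction and adhesion proteins Pecam1, Cdh5, Esam and Cldn5, the surface sialomucin Emcn and the transcription factor Sox17. The genes were chosen by name, and every probe annotated to them was taken, with the probe of the highest mean signal standing for the gene. Of the 19057 genes named on the array, 12698 were tested, among them 9 of the 10 endothelial genes. Kdr was not well above background on any of the 24 arrays and was not tested.

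The arrays hybridised total RNA from mandibular prominences, the paired facial swellings that form the lower jaw. Embryos were taken at embryonic days 10, 11, 12 and 13 (E10 to E13), each array holding the RNA of 1 embryo without pooling. At each stage 3 embryos were homozygous for a targeted allele of the transcription factor gene Trp63 (p63-/-) and 3 were heterozygous for it (p63+/-), which gives 8 groups of 3 arrays. The allele is that of the B6.129S7-Trp63tm2Brd/J line, and C57BL6/J mice were the other strain of the study. The 3 embryos of a genotype and stage came from 3 litters. The comparison group carried 1 mutant copy at every stage, and no embryo without the mutant allele was analysed here.

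Kdr and Flt1 are receptors for vascular endothelial growth factors, Tek is the receptor for the angiopoietins, and Tie1 is a receptor of the Tek family that has no angiopoietin ligand of its own and modulates Tek. Cdh5 (VE-cadherin), Pecam1, Esam and Cldn5 hold neighbouring endothelial cells together, and Sox17 acts in arterial identity. In the facial prominences, vessels invade and remodel within the neural crest mesenchyme while the epithelium, where p63 acts, covers the surface.

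Promoters of endothelial genes often hold sites for Ets family factors, whose core is GGAA. RefSeq promoter windows (build GRCm38.p6, from 250 bases before to 50 bases after the start site) were at hand for 6 of the 10 genes, Kdr, Flt1, Tek, Tie1, Emcn and Cldn5. Searched on both strands, AGGAAG or CGGAAG lay in 3 of these 6 windows, those of Flt1, Tie1 and Emcn, against 46.5% of 32851 promoters. At least 2 matches lay in the same 3 of the 6 windows, against 15.9% of all promoters. The 250 bases before the start site are shown for these 3 genes because they carry the matches, which are in capitals (CTTCCT is AGGAAG on the other strand). The windows lie at chr5:147726012-147726261 on the minus strand for Flt1, chr4:118489850-118490099 on the minus strand for Tie1 and chr3:137340828-137341077 on the plus strand for Emcn.
Flt1: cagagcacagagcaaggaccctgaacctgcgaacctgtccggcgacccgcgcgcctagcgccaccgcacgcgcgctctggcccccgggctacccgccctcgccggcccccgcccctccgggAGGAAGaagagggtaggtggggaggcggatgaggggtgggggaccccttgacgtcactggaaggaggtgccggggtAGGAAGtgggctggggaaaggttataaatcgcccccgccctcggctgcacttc
Tie1: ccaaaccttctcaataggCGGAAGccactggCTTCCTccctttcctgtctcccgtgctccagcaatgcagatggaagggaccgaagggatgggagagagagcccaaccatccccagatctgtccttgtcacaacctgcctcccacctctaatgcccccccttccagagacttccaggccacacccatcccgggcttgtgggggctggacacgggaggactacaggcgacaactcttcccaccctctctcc
Emcn: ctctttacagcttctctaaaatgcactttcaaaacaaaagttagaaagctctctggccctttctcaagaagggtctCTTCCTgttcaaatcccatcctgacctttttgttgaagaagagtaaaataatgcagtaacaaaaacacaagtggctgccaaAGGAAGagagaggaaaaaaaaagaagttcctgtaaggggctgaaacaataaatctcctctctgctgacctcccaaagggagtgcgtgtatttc

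The Flt1 matches began 129 and 53 bases before the start site. In Tie1 the CGGAAG match began 232 bases before it and an AGGAAG match 219 bases before it, while a further AGGAAG match began at base 34 after the start and is not shown. In Emcn the match farther from the start overlapped a match of AACAGGAA, the paired Fox and Ets motif, which 2.65% of all promoters hold. AACAAT, a Sox type motif, was found in Tek and Emcn and in 10.7% of all promoters, and the E-box CACGTG was in 0 of the 6 windows against 7.15% of all. These matches describe letters and not bound sites.

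Between 43.4% and 49% of the 45281 probes were detected on each array. Trp63 signal, on a log2 intensity scale, lay between 8.97 and 9.89 in the 12 p63-/- arrays and between 10.19 and 11.32 in the 12 p63+/- arrays, so the genotypes did not overlap. The 6 arrays of a stage lay on 1 slide of their own, so stage and slide cannot be told apart, whereas each slide held both genotypes. On 1 array, E10 p63-/- replicate 3, visceral yolk sac transcripts stood apart: Afp was at 13.77 there and at most at 8.33 on the other E10 arrays. A lesser signal was on E10 p63-/- replicate 2, with Afp at 8.33 and Ttr, another yolk sac gene, at 10.17. On the E10 p63+/- arrays Afp reached at most 6.00 and Ttr at most 7.98. Leaving out replicate 3 alone thus leaves some yolk sac signal in the E10 p63-/- group. Some arrays of later stages held lesser Afp signal, 9.56 on E11 p63+/- replicate 2 and 8.87 on E12 p63-/- replicate 3. At E13 Afp lay between 4.81 and 5.80. On E10 p63-/- replicate 3 the 9 endothelial genes deviated from their group mean by -0.48 to 0.43, on average by 0.04. Only some of the results that rest on E10 are given without this array too. Without it, the differences between E13 and E10 of the 9 genes lay between 0.54 for Sox17 and 1.21 for Cdh5.

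All 9 measured endothelial genes rose between E10 and E13, by 0.44 to 1.25 on the log2 scale over both genotypes, or 1.35-fold to 2.39-fold. By step, no gene of the 9 passed the test from E10 to E11, where 16.1% of all genes did. From E11 to E12 7 rose, against 17.1% of all genes, and from E12 to E13 6 rose, against 19%. Differences between the steps were not tested. No gene of the 9 passed the test between p63-/- and p63+/- embryos, on average over stages or at any stage. Values are log2 intensities after background correction and normalisation, differences were tested with limma in 1 fit over all 24 arrays, and a gene passed when its p-value adjusted over all 12698 genes was under 0.05. Each array measured RNA from the whole prominence. A change in the number of endothelial cells and a change in RNA per endothelial cell therefore cannot be told apart.

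Between E13 and E10, 66.1% of all genes passed, 31.1% as higher and 35% as lower, so a call at this contrast is common. The median difference was 0.79 over the 9 genes and -0.05 over all genes tested. In 6 of the 9 genes (Pecam1, Cdh5, Tek, Emcn, Esam and Cldn5) every E13 array was above every E10 array, which held for 21.4% of all genes.

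**Figure D1:**
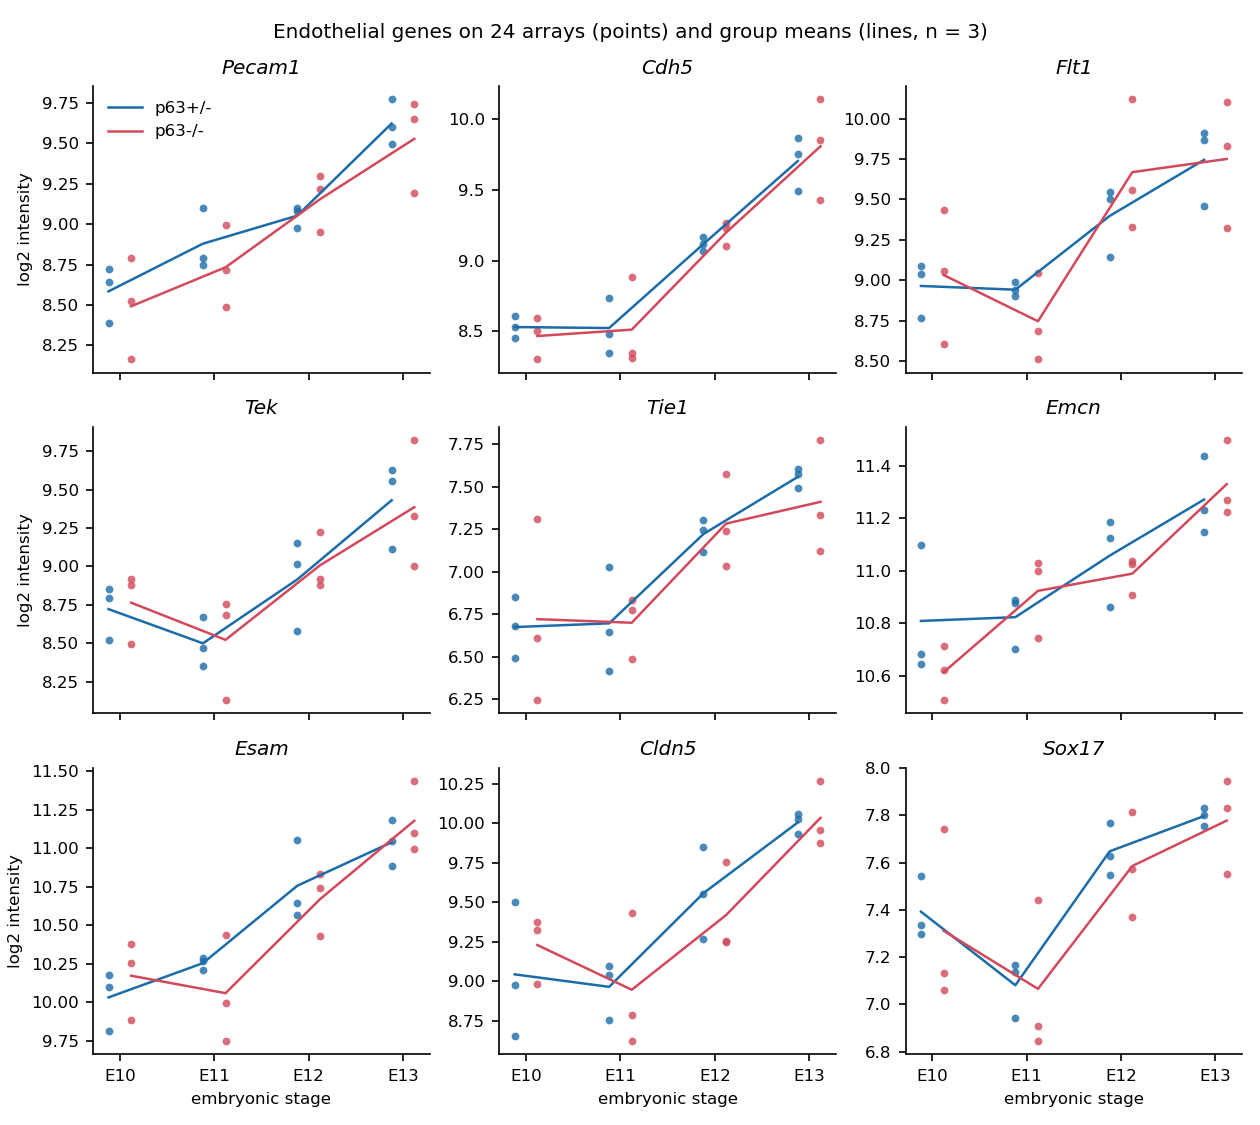
Log2 intensity of the 9 measured endothelial genes on each of the 24 arrays (points), by embryonic stage, with lines through the means of 3 arrays for p63+/- (blue) and p63-/- (red). The lines climb between E11 and E13 in both genotypes, and from E10 to E13 for Cdh5 from 8.53 to 9.70 in p63+/- and from 8.47 to 9.81 in p63-/-.

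Among the receptors, Flt1, which binds vascular endothelial growth factor A and can act as a decoy for it, lay between 8.61 and 9.43 on the 6 arrays of E10, with a median of 9.05. At E11 it lay between 8.51 and 9.04 (median 8.92), at E12 between 9.14 and 10.12 (median 9.52) and at E13 between 9.32 and 10.10 (median 9.85). Every E12 array was above every E11 array, whereas the arrays of E12 and E13 overlapped over most of their range. The step from E11 to E12 was 0.69 ± 0.16 (SE, limma adjusted p = 0.00381), and the step from E12 to E13, 0.21 ± 0.16, did not pass (adjusted p = 0.307). Flt1 thus stood 0.75 ± 0.16 higher at E13 than at E10 (adjusted p = 0.000463). The highest Flt1 signal of E10 was that of E10 p63-/- replicate 3, and leaving it out gave 0.85.

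Tek, the angiopoietin receptor, lay between 8.50 and 8.92 at E10 (median 8.82), between 8.13 and 8.76 at E11 (median 8.57), between 8.58 and 9.22 at E12 (median 8.97) and between 9.00 and 9.82 at E13 (median 9.44). Its 3 lowest arrays were all of E11, and the E13 arrays all lay above those of E10. Tek rose by 0.45 ± 0.15 in each of the later steps (adjusted p = 0.0266 from E11 to E12 and 0.0244 from E12 to E13). Both steps were near the threshold: without 1 array, 6 of the 24 left-out arrays ended each call, with adjusted p up to 0.0848 and 0.0812.

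Tie1, the partner of Tek, lay between 6.24 and 7.31 at E10 (median 6.64), between 6.42 and 7.03 at E11 (median 6.71), between 7.03 and 7.58 at E12 (median 7.24) and between 7.12 and 7.78 at E13 (median 7.53). Its E10 extremes were both p63-/- arrays, replicates 3 and 2. Between E11 and E12 it rose by 0.55 ± 0.16 (adjusted p = 0.0111), and the lowest E12 array, at 7.0326, was just above the highest E11 array, at 7.0289. The later step of 0.23 did not pass (adjusted p = 0.249), and the total was 0.79 ± 0.16 (adjusted p = 0.000198), or 0.67 without E10 p63-/- replicate 3. With the authors' processed values it was 0.26 (adjusted p = 0.000219).

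Kdr, the main signalling receptor for vascular endothelial growth factor A, gave no usable signal. Its brighter probe read between 100.1 and 159 intensity units and its dimmer one between 83.04 and 146.4, and the lowest detection p-values over 24 arrays were 0.0577 and 0.222. On the log2 scale the brighter probe lay between 4.64 and 5.64 on all arrays. Neither stage nor genotype could be compared for Kdr, and these values give no measure of the transcript beyond being not well above background.

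Cdh5, the adhesion molecule of endothelial adherens junctions, lay between 8.30 and 8.61 at E10 (median 8.52), between 8.31 and 8.88 at E11 (median 8.42), between 9.07 and 9.26 at E12 (median 9.14) and between 9.43 and 10.14 at E13 (median 9.80). The arrays of E10 and E11 overlapped, with the highest of them at E11, and every E12 array lay above these and below every E13 array. Cdh5 rose by 0.64 ± 0.12 from E11 to E12 (adjusted p = 0.000731) and by 0.60 ± 0.12 from E12 to E13 (adjusted p = 0.000684). From E10 to E13 it rose by 1.25 ± 0.12, a 2.39-fold difference (adjusted p = 2.35e-08).

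Pecam1, an adhesion molecule of endothelial junctions that platelets and leukocytes also carry, climbed in smaller steps. It lay between 8.16 and 8.79 at E10 (median 8.58), between 8.49 and 9.10 at E11 (median 8.77), between 8.95 and 9.30 at E12 (median 9.09) and between 9.19 and 9.78 at E13 (median 9.62). Neighbouring stages overlapped each time, while E10 and E13 did not. The difference was 0.27 ± 0.12 from E10 to E11 (adjusted p = 0.135), 0.30 ± 0.12 from E11 to E12 (adjusted p = 0.063) and 0.47 ± 0.12 from E12 to E13 (adjusted p = 0.00504), and only the last of the 3 passed. From E10 to E13 Pecam1 rose by 1.04 ± 0.12 (adjusted p = 4.04e-07).

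Esam, an adhesion molecule of endothelial tight junctions, lay between 9.81 and 10.38 at E10, between 9.75 and 10.44 at E11, between 10.43 and 11.05 at E12 and between 10.88 and 11.44 at E13. It rose by 0.56 ± 0.13 from E11 to E12 (adjusted p = 0.00301) and by 0.40 ± 0.13 from E12 to E13 (adjusted p = 0.0185), and by 1.01 ± 0.13 in all (adjusted p = 1.04e-06). The Esam call from E12 to E13 ended when any 1 of 3 arrays was left out (limma adjusted p up to 0.0584). Cldn5, the main claudin of endothelial tight junctions, lay between 8.65 and 9.50 at E10, between 8.62 and 9.43 at E11, between 9.25 and 9.85 at E12 and between 9.88 and 10.27 at E13. The later steps of Cldn5 were both 0.53 ± 0.16 (adjusted p = 0.0142 and 0.0124). Its 6 arrays of E13 lay above all earlier ones, and the total rise was 0.88 ± 0.16 (adjusted p = 6.33e-05).

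Emcn, a sialomucin of venous and capillary endothelium, lay between 10.51 and 11.10 at E10 (median 10.66), between 10.70 and 11.03 at E11 (median 10.88), between 10.86 and 11.19 at E12 (median 11.03) and between 11.15 and 11.50 at E13 (median 11.25). Its level moved in small steps, of which the last, 0.28 ± 0.09, passed (adjusted p = 0.0203). That call ended when any 1 of 3 arrays was left out (limma adjusted p up to 0.062). The total was 0.59 ± 0.09 (adjusted p = 1.1e-05), with the E10 p63+/- replicate 2 array, at 11.10, just under the lowest E13 array.

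Sox17, a transcription factor of arterial endothelium, lay between 7.06 and 7.74 at E10 (median 7.32), between 6.84 and 7.44 at E11 (median 7.04), between 7.37 and 7.81 at E12 (median 7.60) and between 7.55 and 7.95 at E13 (median 7.82). It dipped at E11 without passing the test (-0.28 ± 0.12, adjusted p = 0.124), rose by 0.54 ± 0.12 from E11 to E12 (adjusted p = 0.00285) and then differed by 0.17 (adjusted p = 0.278). Its rise from E10 to E13 was 0.44 ± 0.12 (adjusted p = 0.00408), while the values as the authors processed them gave 0.17 (adjusted p = 0.00521). The highest Sox17 signal of E10 came from E10 p63-/- replicate 3. Leaving that array out gave a rise of 0.54.

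From E10 to E11, 0 of the 9 passed in limma, 2 had an unadjusted p under 0.05 (Pecam1 at 0.27 and Sox17 at -0.28), and 16.1% of all genes passed. From E11 to E12 Cdh5, Flt1, Tek, Tie1, Esam, Cldn5 and Sox17 rose (7 of 9, against 35.1% of all genes in either direction and 17.1% as higher), and every array of E12 exceeded every array of E11 in 3 genes, Cdh5, Flt1 and Tie1, against 6.67% of all genes. From E12 to E13 Pecam1, Cdh5, Tek, Emcn, Esam and Cldn5 rose (6 of 9, against 39.7% in either direction and 19% as higher), and 2 genes, Cdh5 and Cldn5, had no overlap, against 10.3% of all genes. Cdh5, Tek, Esam and Cldn5 passed in both later steps. The 6 genes of the last step became 3 when either E12 p63+/- replicate 3 or E13 p63-/- replicate 1 was left out, and the 0 of the step to E11 became 1 (Sox17) without E11 p63-/- replicate 3. That a gene passed in one step and not in the next was not itself tested.

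**Figure D2:**
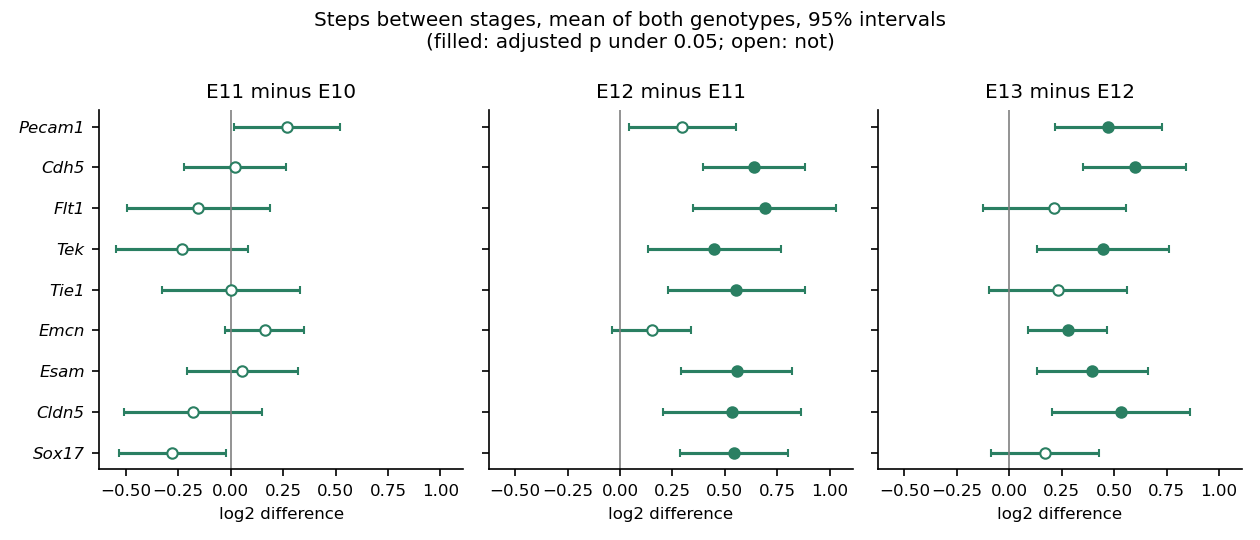
Log2 difference between neighbouring stages for each of the 9 endothelial genes, averaged over both genotypes, with limma 95% intervals. Filled points passed an adjusted p of 0.05: 0 of 9 from E10 to E11, 7 from E11 to E12 and 6 from E12 to E13.

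The genes rose from E10 to E13 within each genotype. In p63+/- embryos 8 of the 9 passed (53.3% of all genes in either direction, 25.3% as higher), from 0.46 for Emcn to 1.17 for Cdh5, and Sox17 at 0.40 did not (adjusted p = 0.0563). In p63-/- embryos all 9 measured genes passed (55.9% in either direction, 27.4% as higher), from 0.47 for Sox17 to 1.34 for Cdh5. The count in p63-/- rests on few arrays: without E13 p63-/- replicate 1 it was 5 of 9, with Flt1, Tek, Tie1 and Sox17 no longer past the threshold. Without E10 p63-/- replicate 3, the array with the highest Afp signal, Tie1 no longer passed in p63-/- (0.45, adjusted p = 0.0877), while the count over both genotypes stayed at 9. The test of whether genotype alters the differences between stages gave an adjusted p of 0.9999 for each of the 9 genes, with 2 of all genes past the threshold (0.0158%).

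The genotype comparison asks whether loss of the remaining Trp63 copy goes with another level of endothelial transcripts in the jaw. Averaged over the 4 stages, p63-/- minus p63+/- lay between -0.06 for Pecam1 and 0.04 for Flt1, with standard errors of 0.06 to 0.12. In limma 0 of the 9 genes passed, 0 had an unadjusted p under 0.05, and 2.35% of all genes passed (298 genes, with 1290 at an unadjusted p under 0.05). The 95% interval ran from -0.24 to 0.12 for Pecam1, from -0.15 to 0.20 for Cdh5, from -0.16 to 0.11 for Emcn and from -0.20 to 0.28 for Flt1, so differences inside these bounds were not excluded. For comparison, the central 95% of all genes lay between -0.24 and 0.37.

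Stage by stage the arrays of both genotypes overlapped for all 9 measured genes. At E10, where 0.795% of all genes passed, 0 of the 9 did, and 0 did at E11 (0.512% of all genes), E12 (0.299%) and E13 (0.307%), with no unadjusted p under 0.05 in limma among the 36 values. Complete separation of the 3 arrays of one genotype from the 3 of the other was seen in 18.2% of all genes at E10, 9.45% at E11, 6.95% at E12 and 7.88% at E13, and in none of the 9 at any stage. The largest single difference was that of Flt1 at E12, where the p63-/- arrays read 9.33, 10.12 and 9.56 and the p63+/- arrays 9.14, 9.54 and 9.50. The p63-/- embryo at 10.12 stood highest, and the other p63-/- arrays lay at the levels of the p63+/- arrays (difference 0.27 ± 0.23, limma unadjusted p = 0.253).

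Emcn had the lowest p of the stage comparisons, at E10. The p63-/- arrays read 10.51, 10.71 and 10.62 and the p63+/- arrays 10.65, 11.10 and 10.68. The p63+/- array at 11.10 stood apart from the other 5. The difference was -0.20 ± 0.13 (limma unadjusted p = 0.141, adjusted p = 0.518), -0.20 without E10 p63-/- replicate 3 and -0.05 without the p63+/- array at 11.10. At E11 Emcn differed by 0.10, at E12 by -0.07 and at E13 by 0.06, so its sign was not constant over stages.

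**Figure D3:**
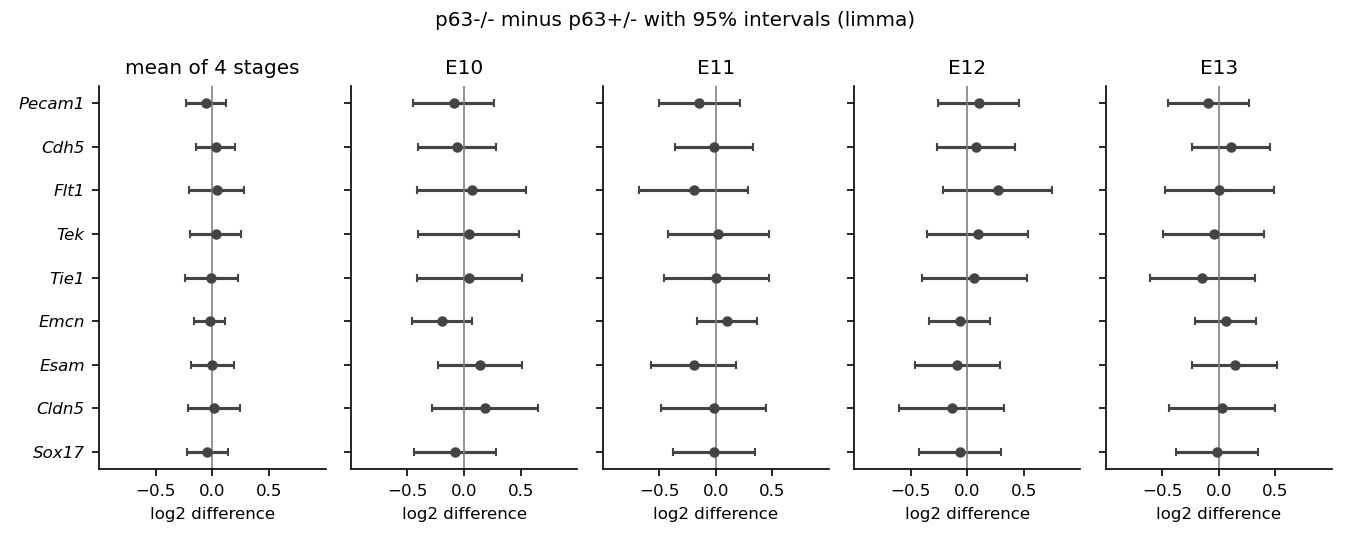
Difference in log2 intensity between p63-/- and p63+/- embryos for each of the 9 endothelial genes, as the mean of 4 stages and at each stage, with limma 95% intervals. All intervals cross 0; the stage values reach from -0.20 for Emcn at E10 to 0.27 for Flt1 at E12.

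Where a gene had further probes they were set beside the brightest. The second probe of Pecam1, detected on all 24 arrays, differed by 1.51 ± 0.13 between E13 and E10 (adjusted p = 8.67e-09) and passed from E11 to E12 too (0.62, adjusted p = 0.00177), where the brightest probe did not. The third Pecam1 probe was detected on 3 arrays and differed by 0.28 (adjusted p = 0.0654). The second Cdh5 probe gave 0.89 ± 0.11 (adjusted p = 1.03e-06) with 0.21 from E11 to E12 (adjusted p = 0.154), so the probes of Cdh5 disagree on that step. From E10 to E11 this second probe gave 0.22 (limma adjusted p = 0.19). The second Sox17 probe gave 0.47 ± 0.12 (adjusted p = 0.00204) and passed from E12 to E13 (0.32, adjusted p = 0.0415). The second Flt1 probe was detected on 0 of 24 arrays. None of the probes that were tested passed for genotype.

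The 9 genes also moved together among embryos of 1 group. Over the 24 arrays the 36 pairs of genes correlated with a Pearson r of 0.61 to 0.91 (median 0.82), which includes the shared rise with stage. For deviations from the group mean the r ranged from 0.08 (Pecam1 with Sox17) to 0.82 (Pecam1 with Tie1), with a median of 0.50. These values share arrays, RNA and normalisation and are given as a description.

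On 3 arrays all 9 genes lay above their group mean: E12 p63+/- replicate 2, E13 p63+/- replicate 1 and E13 p63-/- replicate 1. On 2 arrays all 9 lay below it, E11 p63-/- replicate 2 and E13 p63-/- replicate 3. The E13 p63-/- group spread most: the mean of the 9 deviations was 0.28 for replicate 1, -0.01 for replicate 2 and -0.28 for replicate 3. Cdh5 in these 3 embryos read 10.14, 9.85 and 9.43, and Tek read 9.82, 9.33 and 9.00. The range of Cdh5 within that group exceeded its mean step of 0.60 from E12 to E13. Tie1, Pecam1 and Sox17 followed the other members least closely, with an r between deviations of 0.44, 0.52 and 0.59 to the mean of the others, against 0.76 for Emcn and 0.73 for Tek.

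**Figure D4:**
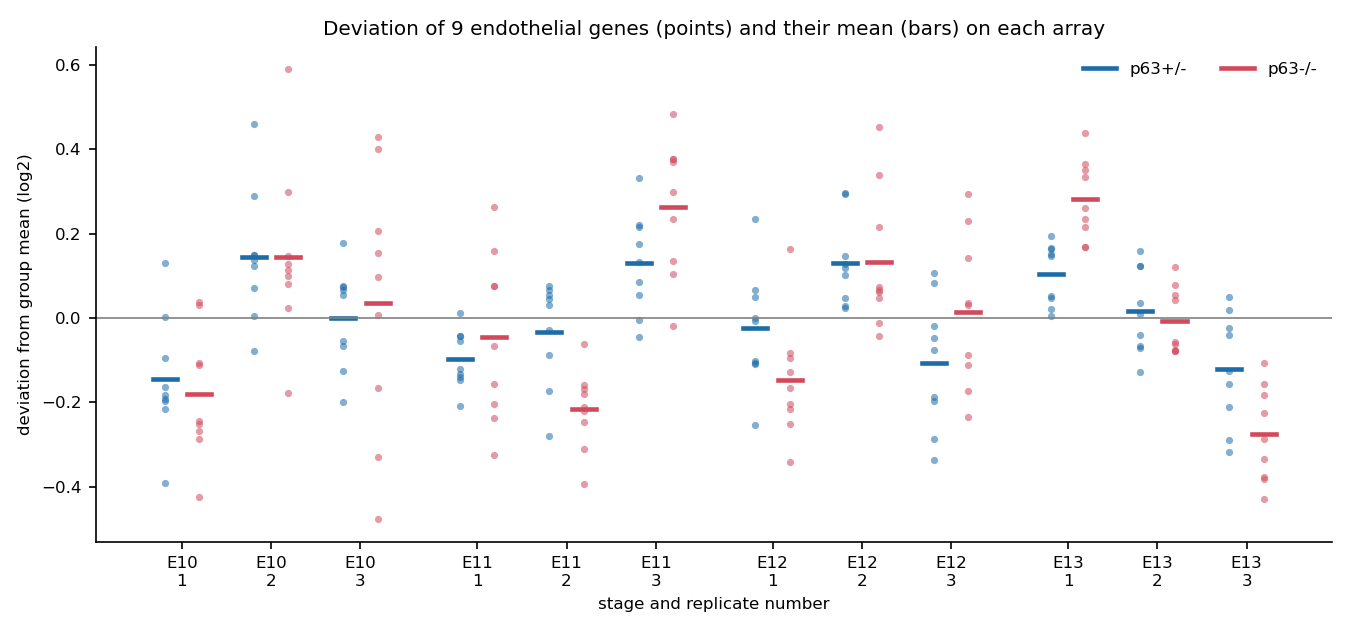
Deviation of each of the 9 endothelial genes (points) from its group mean on each of the 24 arrays, in log2 units, with bars for the mean of the 9, p63+/- in blue and p63-/- in red. The bars of E13 p63-/- lie at 0.28, -0.01 and -0.28, and those of the E12 p63+/- replicate 2, E13 p63+/- replicate 1 and E13 p63-/- replicate 1 arrays have all 9 points above 0.

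Ranked by correlation with the mean of the 9 genes over the 24 arrays, the nearest other genes were Aplnr (r = 0.97), the apelin receptor, Cd93 (0.96), a surface lectin of endothelium, Arap3 (0.95), Sox7 (0.95) and Ramp2 (0.95), followed by Igfbp4, Emc10, Icam2, Ptprb and Tmem109, all at 0.94 or above. The 95th percentile over all genes was 0.86, since many genes rose with stage. By deviations from group means over the same arrays, Egfl7 (r = 0.91), a secreted endothelial protein, Arap3 (0.88), Aplnr (0.86) and Ptprb (0.82), an endothelial receptor phosphatase, led, followed by Kank3, Klf2, Kcnk6, Snx19, Mc5r and Arhgef15. There the 95th percentile over all genes was 0.48, and 5 of the 10 genes (Egfl7, Aplnr, Ptprb, Klf2 and Arhgef15) were on the lists of endothelial genes.

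The counts of lists that follow stand against 31.1% of all genes higher and 35% lower from E10 to E13. Of 24 measured surface and junction genes outside the 9, 21 rose from E10 to E13 and 1 fell, with a median of 0.91. Cav1, the coat protein of caveolae, rose by 3.17 ± 0.25, Vwf, the stored clotting factor of endothelium, by 1.71 ± 0.26, Robo4 by 1.37 ± 0.13 and Tspan18 by 1.24 ± 0.14 (limma adjusted p from 3.3e-09 to 1.08e-05). Cav1 is also made by mesenchymal cells, and its level cannot be assigned to a cell type here. Podxl, a sialomucin of endothelium and of epithelium, was the gene that fell, by 1.13 ± 0.17 (adjusted p = 1.05e-05).

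Of 15 transcription factors of endothelium, 7 were higher and 7 lower, with a median of 0.19. Mef2c, which also acts in muscle and neural crest, rose by 3.03 ± 0.17 (adjusted p = 1.06e-10), and the Sox17 relatives Sox7 and Sox18 rose by 1.14 ± 0.12 and 0.97 ± 0.12. Tal1 fell by 1.85 ± 0.29, Mecom by 1.30 ± 0.19 and Fli1 by 1.17 ± 0.17 (adjusted p from 6.49e-06 to 1.49e-05). Tal1 and Lmo2, which fell by 0.55 ± 0.10, are made by blood cells as well as by endothelium.

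Among genes of vessel identity 11 of 18 rose and 1 fell, with a median of 0.75. The 4 with the largest change were Hey2, an arterial Notch target (2.16 ± 0.41), Nrp1, a coreceptor for growth factors and semaphorins (1.90 ± 0.19), Gja5, an arterial gap junction protein (1.75 ± 0.18), and Notch1 (1.40 ± 0.15), with limma adjusted p from 6.02e-08 to 0.000131. Of 15 ligands and inhibitors 11 rose and 1 fell. The ligand of Tek, Angpt1, rose by 2.07 ± 0.24 and was detected on 23 of 24 arrays, while its counterpart Angpt2 differed by -0.22 ± 0.17 (adjusted p = 0.262). Vegfa, the ligand of Kdr and Flt1, rose by 0.74 ± 0.08 (adjusted p = 2.62e-07), Cxcl12 by 1.19 ± 0.08 and Angptl1 by 3.52 ± 0.23.

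Of 7 measured genes that mark barrier endothelium of the brain, 1 rose and 3 fell. The transporter Slc38a5 fell by 4.53 ± 0.30 (adjusted p = 4.45e-10), Ocln, which epithelia also make, by 0.91 ± 0.12 and Mfsd2a by 0.62 ± 0.10, while Apcdd1 rose by 1.96 ± 0.21. Slc38a5 is known in erythroid cells too. With the authors' processed values the 46 other named genes that passed between E13 and E10 all had the same sign and 45 passed (Cxcr4 did not), but 22 of the differences were over 1.5 times smaller (0.195 to 1 of those given).

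Markers of other cells moved with stage beside these results. Of 10 measured mural cell genes, 7 rose and 1 fell, with Acta2 at 4.64 ± 0.38 and Des at 1.35 ± 0.17, which muscle also makes, and Pdgfrb at 0.95 ± 0.14. The gene that fell was Rgs5, a pericyte marker (limma adjusted p = 8.8e-06), which was detected on 6 of 6 arrays at E10, between 5.79 and 6.90, and on 0 of 6 at E13. The summed linear signal of the 10 was 3054 to 5526 at E10 and 19290 to 31630 at E13, with Acta2, Pdgfrb and Des detected on all 24 arrays, Rgs5 on 8 and Tagln on 4. Acta2 and Des, which muscle also makes, are in this sum, so it gives no measure of mural cell number. Of 12 macrophage genes 10 rose, led by Adgre1 (2.06 ± 0.21), with a sum of 859.3 to 2217 at E10 and of 2424 to 4465 at E13, and Ptprc was detected on 5 arrays. Of 10 erythroid genes 7 fell and 1 rose, with Hbb-bh1, the embryonic beta globin, falling by 3.93 ± 0.22 and Klf1 by 3.50 ± 0.30, and their sum was 199800 to 251300 at E10 and 126700 to 144400 at E13. Of 8 platelet and progenitor genes 4 fell and 1 rose, with Runx1 rising by 1.62 ± 0.17 and Kit and Itga2b falling by 1.03 ± 0.19 and 0.92 ± 0.22. The part of these cells in the endothelial values was not tested.

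**Figure D5:**
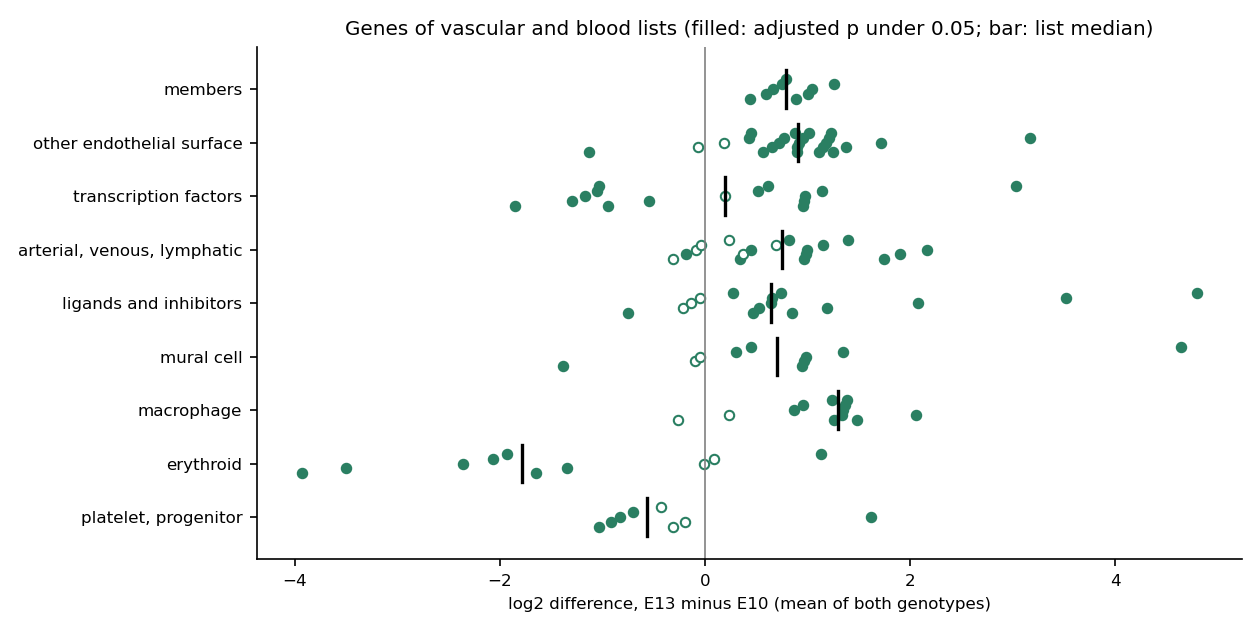
Log2 difference between E13 and E10, averaged over both genotypes, for each measured gene of the 9 endothelial genes (labelled members) and of 8 lists of vascular and blood genes. Filled points passed an adjusted p of 0.05 and black bars are medians, which lie at 0.79 for the 9 genes, 0.91 for other endothelial surface genes and -1.79 for erythroid genes.

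By genotype, averaged over stages, the lists gave 1 call of 24 other surface genes, 1 of 18 identity genes, 2 of 15 ligands and inhibitors, 1 of 7 barrier genes and 0 of 15 transcription factors, all higher in p63-/-, where 2.35% of all genes passed. Of mural (10), erythroid (10) and macrophage (12) genes 0 passed. The surface gene was Podxl, higher by 0.54 ± 0.12 (adjusted p = 0.018). Cxcr4, the receptor of Cxcl12, was higher by 0.69 ± 0.10 (adjusted p = 0.000239), with 8.21 to 8.89 in the 12 p63-/- arrays and 7.27 to 8.51 in the 12 p63+/- arrays, ranges that overlap. The r of Cxcr4 with the mean of the 9 genes was 0.34 over the 24 arrays and -0.13 between deviations from group means. Which cells carry the Cxcr4 difference was not tested. Ocln was higher by 0.69 ± 0.09 (adjusted p = 4.76e-05). Angpt2 was higher by 0.46 (adjusted p = 0.0444), a call that ended without 17 of the 24 arrays in turn, E10 p63-/- replicate 3 among them (adjusted p = 0.0609), and Sema3e, detected on 11 of 12 p63-/- and 7 of 12 p63+/- arrays, by 0.56 (adjusted p = 0.0138).

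Epithelial genes differed by genotype beside these. Of 12 measured, 5 were higher in p63-/- and 3 lower, and all but Krt5 were detected on 24 of 24 arrays. Their summed signal was 23180 to 41980 in E10 p63-/- against 16490 to 19040 in E10 p63+/-, 17600 to 26220 against 13470 to 13790 at E11, 14710 to 21390 against 10200 to 19020 at E12 and 17020 to 17660 against 18150 to 22470 at E13. The E10 p63-/- range includes replicate 3, the array with the highest Afp signal, and no sum without it is given. Podxl and Ocln are epithelial genes as well as endothelial ones, and the part of the epithelium in their difference was not tested. Without E10 p63-/- replicate 3 their differences averaged over stages were 0.47 for Podxl and 0.64 for Ocln. The summed signal of the 9 endothelial genes was 4620 to 5695 in E10 p63-/- and 4756 to 6128 in E10 p63+/-, and 8129 to 11360 in E13 p63-/- and 8377 to 10050 in E13 p63+/-.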

How the data were processed

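RNA of the mandibular prominences of 24 embryos was hybridised to Illumina mouse bead arrays. The authors deposited probe intensities and detection p-values that were not normalised, per the file headers, for 45281 probes. They also deposited processed log2 values, for which the submitters' processing notes name BeadStudio, lumi and RMA, with scale details not given in the sources used here; these served as an alternative. GEO's platform annotation named 34885 probes with 1 gene, 18 with several and 10378 with none.

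Intensities were background-corrected and quantile-normalised with neqc (limma 3.58.1, R 4.3.3, offset 16). The 24233 probes detected (p under 0.05) on 3 or more arrays entered the fit, and the probe of highest mean stood for each of 12698 genes. A model of 8 group means (residual df 16) was fitted with lmFit and eBayes, and p-values were adjusted by Benjamini-Hochberg over all genes. The script was tested on simulated data. The number of arrays limits the precision.

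Members and lists were chosen with earlier results of these data known. The text names all members and the 10 genes most like the members' mean. Of each list and contrast it names up to 4 genes with the largest change among those that passed. Sox7, Sox18, Lmo2, Vegfa, Angpt2 and Pdgfrb were added for their known roles. Alternatives were quantile normalisation without background correction, an offset of 50, the authors' processed values, other detection filters, all probes, array weights, the compared stages alone, the replicate block and leaving out each array. The 3 embryos of a genotype and stage came from 3 litters, and littermates of both genotypes were collected, per the series' design text. The labels do not say which numbers share a litter, so neither the genotype test nor the tests between stages use litters. The tests between stages treat the 6 embryos of a stage as independent. Where embryos of a litter are alike, the standard errors of the stage differences are too small. Where a p63-/- and a p63+/- embryo share a litter and are alike, those of the genotype differences are too large and their intervals too wide.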

Additional observations from a re-analysis of the deposited data

How the results depend on the processing

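The count of members past the threshold was 9 of 9 between E13 and E10 under each alternative run. Leaving out 1 array at a time, it ranged from 0 to 1 between E11 and E10 (Sox17 passed at -0.37, adjusted p = 0.0472, without E11 p63-/- replicate 3), from 6 to 8 between E12 and E11, and from 3 to 6 between E13 and E12. It fell to 3 both without E12 p63+/- replicate 3 and without E13 p63-/- replicate 1. In p63+/- the count ranged from 8 to 9 and in p63-/- from 5 to 9, with 5 without E13 p63-/- replicate 1. For the genotype comparisons and the interaction it stayed at 0, and 0 of 1764 member values under alternatives passed, although 111 of 1476 differed in sign from a value that was itself not called. The authors' processed values gave differences between E13 and E10 of 0.17 to 0.92, or 0.328 to 0.96 of those reported, and quantile normalisation without background correction gave 0.28 to 1.06. Over all alternatives, 12 of 297 member values from E12 to E13 lost a call and 2 gained a call. The gains were Flt1 and Sox17, each in 1 of 33 alternatives (limma adjusted p = 0.0328 and 0.0356). In p63-/- between E13 and E10, 11 of 297 lost a call, among them Tie1 with array weights.

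Same-numbered p63-/- and p63+/- arrays of a stage are not stated to share a litter. Over genes, 11 of 12 correlated best with their own number, a hint of pairing from the data and not from the design. The pairs correlated at 0.042 to 0.628, 9 of 12 above 0.1, and as the labels do not state the pairing and not every pair exceeded 0.1, the arrays were not treated as paired. With the replicate block the count between E12 and E11 was 6, Tek being at an adjusted p of 0.0511, and no other count of members moved. Over all genes, the block gave 205 genes for genotype at E10 in place of 101 and 1219 between E11 and E10 in place of 2049. Array weights gave 600 genes in place of 298 for genotype averaged over stages, 295 at E10, 119 in place of 65 at E11, 62 in place of 38 at E12 and 273 in place of 39 at E13. The compared stages alone gave 26 at E10, 26 at E11 and 8 at E12, and the authors' values gave 35 at E11. The interaction gave 2 genes, 67 with array weights and 0 to 4 under the other settings that used all arrays. With all 24233 probes tested in place of 12698 genes, more features passed: 3696 in place of 2049 between E11 and E10, 8053 in place of 4463 between E12 and E11, 8604 in place of 5039 between E13 and E12, 15492 in place of 8399 between E13 and E10, 12112 in place of 6771 in p63+/- and 12818 in place of 7095 in p63-/-. Without 1 array the genotype count ranged from 51 (E10 p63+/- replicate 3) to 430 (E10 p63-/- replicate 1) at E10, from 28 (E11 p63-/- replicate 2) to 93 at E11, from 23 (E12 p63+/- replicate 2) to 49 at E12 and from 23 (E13 p63+/- replicate 2) to 52 at E13, and the count between E11 and E10 from 1224 (E11 p63+/- replicate 3) to 2170. The 93, 49 and 52 all came without E10 p63-/- replicate 3, the array with the highest Afp signal, although it belongs to another stage. Leaving it out also gave the highest count for genotype averaged over stages, 341 in place of 298. The shares of all genes that passed for genotype thus depend on this array. The cause of the other changes was not tested. Of the 10 genes most like the members over 24 arrays, 6 stayed among the 10 with the authors' values. Cxcr4 no longer passed at E10 or E11 in 20 and 6 alternatives. Kdr and the second Flt1 probe were detected on 0 of 24 arrays.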

Other observations

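The same-numbered embryos of both genotypes deviated alike in the endothelial genes. In 10 of 12 pairs of a stage and a replicate number, the mean deviation of the 9 genes had the same sign in the p63-/- and the p63+/- array; at E13 it was 0.28 and 0.11 for replicate 1, -0.01 and 0.02 for replicate 2, and -0.28 and -0.12 for replicate 3. Over the 12 pairs the Pearson r of these mean deviations was 0.82, while the replicate block used a correlation of 0.25 over all genes. The deviations of 3 arrays of a group sum to 0, so the pairs are not independent, and this comparison was chosen after the values were seen. The labels do not say whether a number marks a litter.

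Cxcr4 was higher in p63-/- at E10 by 0.87 ± 0.20 (limma adjusted p = 0.0425) and at E11 by 1.04 ± 0.20 (adjusted p = 0.0147), and the differences at E12 (0.58) and E13 (0.24) did not pass. The call at E10 ended in 20 of 33 alternatives, with adjusted p up to 0.295. Without E10 p63-/- replicate 3 the difference at E10 was 1.09.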
